A study of Homo sapiens with 18 samples.

Results

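Domesticated retrotransposon gag genes are single-copy or small-family human genes that descend from the gag gene of ancient LTR retrotransposons, the gene that encodes the shell protein of a retroelement particle. The set described here has 7 named members, RTL6, RTL8A, RTL8B, RTL8C, PEG10, LDOC1 and PNMA1. It was chosen by gene symbol, and because RTL6 stood among the larger half-life rises of this experiment, so its half-life ratios are given as a description with no test. Of the 7 members, 6 were among the 8996 genes of the deposited table; PEG10 was absent from it and is not analysed here.

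RNA turnover was measured by SLAM-seq in HEK293T, a wild-type line derived from human embryonic kidney. Cells received STM2457, an inhibitor of the m6A methyltransferase METTL3, or the solvent DMSO for 3 h. They were then given 100 µM 4-thiouridine (s4U) for 90 or 180 min, or no s4U, under both treatments. With 3 samples for each of 6 combinations there were 18 samples, read as 3′ mRNA libraries. The deposited table gives 1 fitted half-life and 1 fitted synthesis rate per gene and treatment. It has no values per sample, no errors and no read counts, so the depth is unknown, and what follows compares 2 fitted values per gene without a p-value. A gene is called longer-lived or shorter-lived where its STM2457 half-life differed from its DMSO half-life by more than 1.5-fold, a rule of size. No time unit is given, and hours are inferred from the largest half-life, 69.3, which is ln 2 over a rate of 0.01. This ceiling was reached by 980 genes in STM2457 and 229 in DMSO. The longest labelling was 180 min, so half-lives of many hours lie far beyond it, and their precision is not known. Of 9 genes listed as markers of the kidney line, 6 were in the table, all within 1.5-fold. Of 11 markers of other cell types, COL1A1 and CDX2 were in the table. These were 3.70-fold and 34.6-fold longer-lived, with CDX2 at the ceiling in STM2457. Presence in the table is not an expression level, so the identity of the cells could not be checked further.

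The gag genes came into the genome as parts of retroelements and were later kept for functions of their hosts. The RTL and LDOC1 genes belong to a family related to Ty3/gypsy elements, and the PNMA genes to a second such family. In mice, members of the first family act in the placenta and the brain. Most carry the whole coding sequence in 1 exon. N6-methyladenosine (m6A) is placed on mRNA by METTL3 and its partners at DRACH motifs, which are an A, G or T, then an A or G, then A, C, and an A, C or T. It is placed mainly away from exon junctions, where exon junction complexes would block it, and it can shorten the life of an mRNA. GGACT is the form of the motif that METTL3 prefers.

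The coding sequences below show where that preferred form lies in each gene. They were read from GENCODE release 29 transcripts (GRCh38), on the transcript strand only, 5′ to 3′, with 12 bases on each side of the motif and the motif in capitals. RTL6 holds GGACT at 2 places, with the A at coding positions 271 and 676 of 720. RTL8A, RTL8B and RTL8C each hold it at 1 place, with the A at position 335 of 342, beside the stop codon TAG. The coding sequences of PNMA1 and LDOC1 hold none, and their first DRACH motif is shown instead.
RTL6, chr22:44497272-44497300, minus strand: ttacttcaaacgGGACTcgacccatgacc
RTL6, chr22:44496867-44496895, minus strand: cagcttccaacgGGACTagtccagcgcca
RTL8A, chrX:135051760-135051788, minus strand: ggaggaggacgaGGACTtctaggccggga
RTL8C, chrX:135032704-135032732, plus strand: ggaggaggacgaGGACTtctaggccggga
RTL8B, chrX:135022111-135022139, minus strand: ggaggaggacgaGGACTtctaggccggga
PNMA1, chr14:73713616-73713644, minus strand: agaaaatggcgaTGACActgttggaagac
LDOC1, chrX:141176940-141176968, minus strand: cctgagcatcgaGAACAgccagctcatgg
The 29 bases around the motif are identical in the 3 RTL8 genes. GGACT was present in 57.6% of the 1359 coding sequences of like length to RTL6 (at most 25% longer or 20% shorter) and in 30.2% of the 364 of like length to RTL8. It was present in 71.0% of the 1920 of like length to PNMA1 and in 42.3% of the 615 of like length to LDOC1. A motif is a description of the sequence and not a measurement of m6A.

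The members split by treatment response. RTL6 had a half-life many times longer in STM2457, the 3 RTL8 genes had half-lives that were several times shorter, and LDOC1 and PNMA1 stayed within 1.5-fold. Of the 6 members in the table, 1 was longer-lived (28.5% of all genes were) and 3 were shorter-lived (24.9% of all genes were). The median log2 ratio of the 6, STM2457 over DMSO, was -0.53, against -0.01 over all genes. It falls between the RTL8 genes and the others and describes no single member.

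RTL6 (ENSG00000188636.4, chromosome 22, 44492572 to 44498298, minus strand), which in mice is made by microglia and acts in innate immunity in the brain, had a half-life of 21.1 h in STM2457 and 1.96 h in DMSO. This is 10.7-fold longer, a log2 ratio of 3.42. It had the shortest half-life of the 6 members in DMSO and the longest in STM2457. It stood 311th from the top of all 8996 genes. Among the 7368 genes with both half-lives between 0.5 and 24 h, it stood 9th, but that range leaves out most genes ranked above it. Its neighbours in the order of all genes were GNPTG, JUND and TBC1D24 above it, at log2 ratios of 3.43, and AC090772.3, SLC10A3 and ZNF496 below it, at 3.41. GNPTG, AC090772.3 and SLC10A3 sat at the ceiling of 69.3 h in STM2457, and RTL6 did not. Of 1010 other genes with a like DMSO half-life (at most 25% longer or 20% shorter than that of RTL6), 80 had a higher ratio and their median was 0.38.

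RTL8A, RTL8B and RTL8C lie together within 31.7 kb of the X chromosome (135020504 to 135052196), with RTL8C on the plus strand between the others, which are on the minus strand. In human cells RTL8 proteins bind the ubiquilin UBQLN2, a carrier of ubiquitinated proteins. RTL8A (ENSG00000203950.6) had a half-life of 5.64 h in STM2457 and 17.5 h in DMSO, 3.10-fold shorter (log2 ratio -1.63). RTL8C (ENSG00000134590.13) had 4.91 h in STM2457 and 14.8 h in DMSO, 3.01-fold shorter (-1.59). RTL8B (ENSG00000212747.4) had 1.94 h in STM2457 and 5.41 h in DMSO, 2.79-fold shorter (-1.48). The ratios of the 3 genes were close to each other although RTL8B had the shortest half-life of the 3 in both treatments. In the order of all genes they stood 257th (RTL8A), 278th (RTL8C) and 346th (RTL8B) from the bottom. Among genes with a like DMSO half-life, 86 of 767 lay below RTL8A, 79 of 907 below RTL8C and 19 of 1721 below RTL8B, and the medians of those genes were -0.32, -0.42 and -0.19.

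The 3 RTL8 genes are near-identical copies, so their values are uncertain where reads could not be placed. Their coding sequences differed at 12 of 343 aligned positions between RTL8A and RTL8B, at 16 of 342 between RTL8A and RTL8C and at 19 of 343 between RTL8B and RTL8C. The 3′ ends, where these libraries are read, were less alike. Over the last 500 bases of the annotated transcripts identity was 83.5% between RTL8A and RTL8C, 51.5% between RTL8A and RTL8B and 50.4% between RTL8B and RTL8C. Of the windows of 100 bases in that stretch, 0 of 401 occurred exactly in a transcript of another gene for each of the 3. The sources used here do not say how reads that match several places were treated, and whether the 3 values are independent was not tested.

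LDOC1 (ENSG00000182195.8, X chromosome, 141175745 to 141177125, minus strand), a leucine-zipper protein that in mice regulates hormone production by the placenta, had a half-life of 18.4 h in STM2457 and 13.8 h in DMSO. Its log2 ratio of 0.42 (1.33-fold) was within the size rule, but lay above 696 of the 974 genes with a like DMSO half-life, whose median was -0.44. PNMA1 (ENSG00000176903.4, chromosome 14, 73711783 to 73714372, minus strand), an antigen of antibodies in paraneoplastic neurological disease, had 3.73 h in STM2457 and 2.54 h in DMSO. Its log2 ratio of 0.56 (1.47-fold) was the nearest to the size rule from inside it, while RTL8B, at 2.79-fold, was the nearest from beyond it. For PNMA1 the genes of like DMSO half-life had a median of 0.26.

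The order of the half-lives differed between treatments. From longest to shortest it was RTL6, LDOC1, RTL8A, RTL8C, PNMA1 and RTL8B in STM2457, and RTL8A, RTL8C, LDOC1, RTL8B, PNMA1 and RTL6 in DMSO. With 1 value per treatment, which neighbours in either order differ beyond error cannot be said. None of the 6 sat at the ceiling in either treatment, and all had both half-lives between 0.5 and 24 h.

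**Figure D1:**
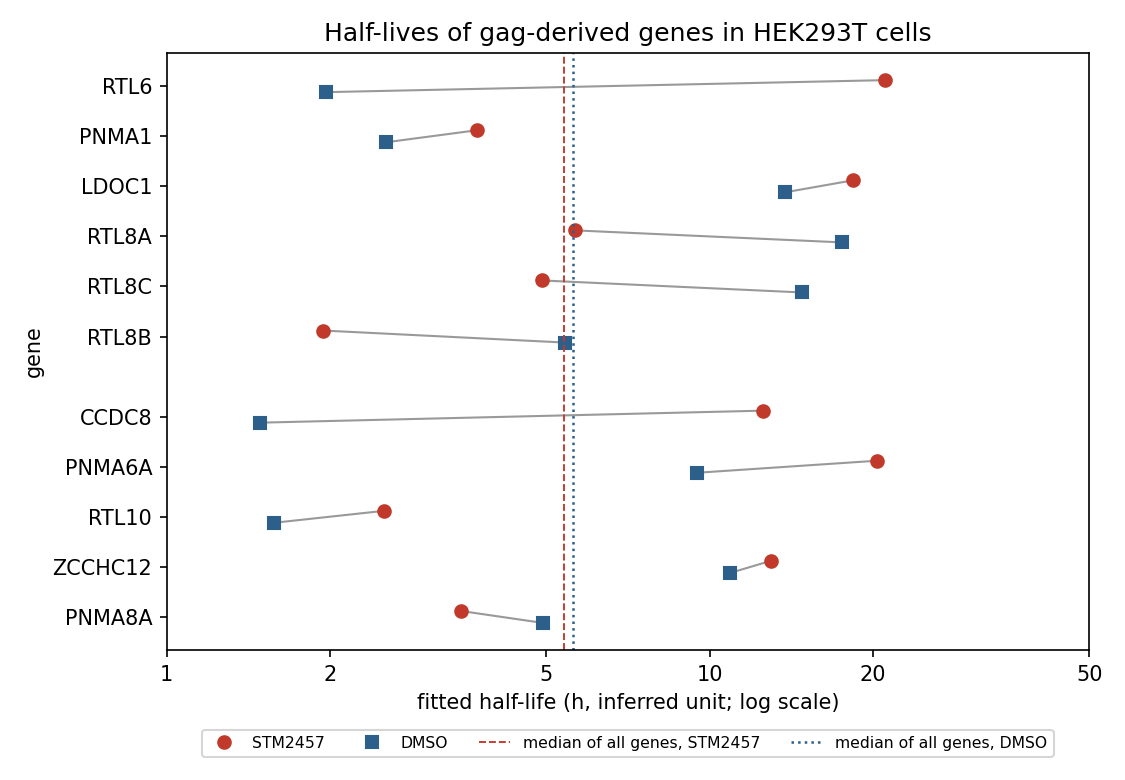
Fitted half-life (h, inferred unit, log scale) of the 6 members in the table and of 5 other gag-derived genes; red circles are STM2457, blue squares DMSO, and the lines mark the medians of all genes, 5.39 h in STM2457 and 5.61 h in DMSO. RTL6 moves right in STM2457, to 21.1 h, while RTL8A, RTL8C and RTL8B move left, to 5.64, 4.91 and 1.94 h.

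The genes also differ in structure. All 6 have the coding sequence in 1 exon; RTL6 alone has a second exon in its annotated transcript, outside the coding sequence. Coding length was 1062 bases in PNMA1, 720 in RTL6, 441 in LDOC1 and 342 in each RTL8 gene, against a median of 1386 over 8611 coding genes. The coding sequence held 16 DRACH motifs in PNMA1, 12 in RTL6, 4 in LDOC1 and 3 in each RTL8 gene. In RTL6 all of these lay at least 100 nt from the exon junction. The other members have no junction, so all their motifs count as far by definition. Over all coding genes the median was 27 motifs, with a median of 3 at least 100 nt from a junction.

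**Figure D2:**
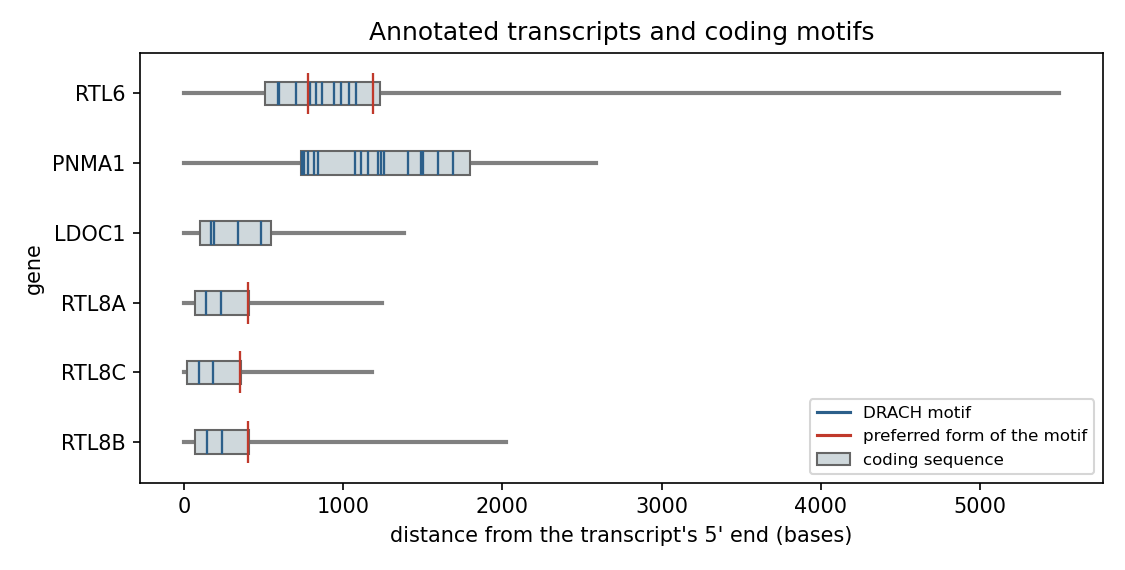
Annotated transcripts of the 6 members to scale, as distance from the 5′ end in bases, with coding sequence as boxes, DRACH motifs of the coding sequence as blue lines and its preferred form as longer red lines. RTL6 and PNMA1 carry 12 and 16 coding motifs, and each RTL8 gene carries 3, 1 of them at the stop codon. LDOC1 is drawn at its annotated 1381 bases, against a deposited length of 3891.

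Motif density was 16.7 per kb of coding sequence in RTL6, 15.1 in PNMA1, 9.07 in LDOC1 and 8.77 in each RTL8 gene. The quartiles over all coding genes were 16.1 and 23.1. Coding sequences of like length had a median of 6 motifs for RTL8, 8 for LDOC1, 14 for RTL6 and 20 for PNMA1. The medians of motifs far from a junction were 0, 1, 1 and 2. Genes with 10 or more far motifs, which include RTL6 and PNMA1, had a median log2 half-life ratio of 0.47 over 2178 genes. Genes with 1 to 3, which include the RTL8 genes, had a median of -0.21 over 2543, and genes with 0 had -0.22 over 2163. Genes with 4 to 9, which include LDOC1, had a median of -0.03 over 1727. What part the motifs have in these ratios was not tested. The 3′ UTRs held 80 DRACH motifs over 4265 bases in RTL6, 30 over 1614 in RTL8B, 14 over 835 in RTL8A, 14 over 821 in RTL8C and 11 over 795 in PNMA1. For LDOC1 the annotated transcript has 1381 bases and the deposited table gives a length of 3891, so its 3′ UTR was not described.

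Across all 346 genes with the coding sequence in 1 exon, 184 were longer-lived (53.2%), 48 shorter-lived (13.9%) and 114 neither; the median log2 ratio was 0.68. The 8265 genes with 2 or more coding exons had a median of -0.03, with 27.3% longer-lived and 25.4% shorter-lived. The 346 include mitochondrially encoded mRNAs, and 47 of the 346 sat at the ceiling in STM2457. Under the ceiling in both treatments, 46.8% of 297 genes with 1 coding exon were longer-lived, against 21.8% of 7332 with more. In the order of the 346, RTL6 stood 46th, PNMA1 191st and LDOC1 207th from the top. RTL8A, RTL8C and RTL8B stood 8th, 9th and 14th from the bottom. The class therefore had a median on the side of RTL6, and the RTL8 genes were near its other end.

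Divided by coding length, a split made after the members' values were seen, the 1-exon genes differed. Those of up to 500 bases, which include LDOC1 and the RTL8 genes, numbered 80, of which 24 were longer-lived and 23 shorter-lived (median 0.12); without the 4 members the counts were 24 and 20 of 76. Those over 500 and up to 1000 bases, which include RTL6, numbered 110, with 57 longer-lived and 17 shorter-lived (0.60). Those over 1000 and up to 1500 bases, which include PNMA1, numbered 76, with 54 longer-lived and 4 shorter-lived (1.28). Those over 1500 bases numbered 80, with 49 longer-lived and 4 shorter-lived (0.86). Genes with 2 or more coding exons in the same length classes had medians of 0.00, -0.03, -0.09 and -0.04. Within their class of 80, RTL8A, RTL8C and RTL8B stood 5th, 6th and 9th from the bottom, and LDOC1 stood 30th from the top. RTL6 stood 19th of 110 from the top, and PNMA1 58th of 76. Coding length moved together with the number of motifs and with the DMSO half-life, whose class medians were 5.39, 2.63, 2.19 and 1.88 h, and their separate parts in the result were not tested.

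**Figure D3:**
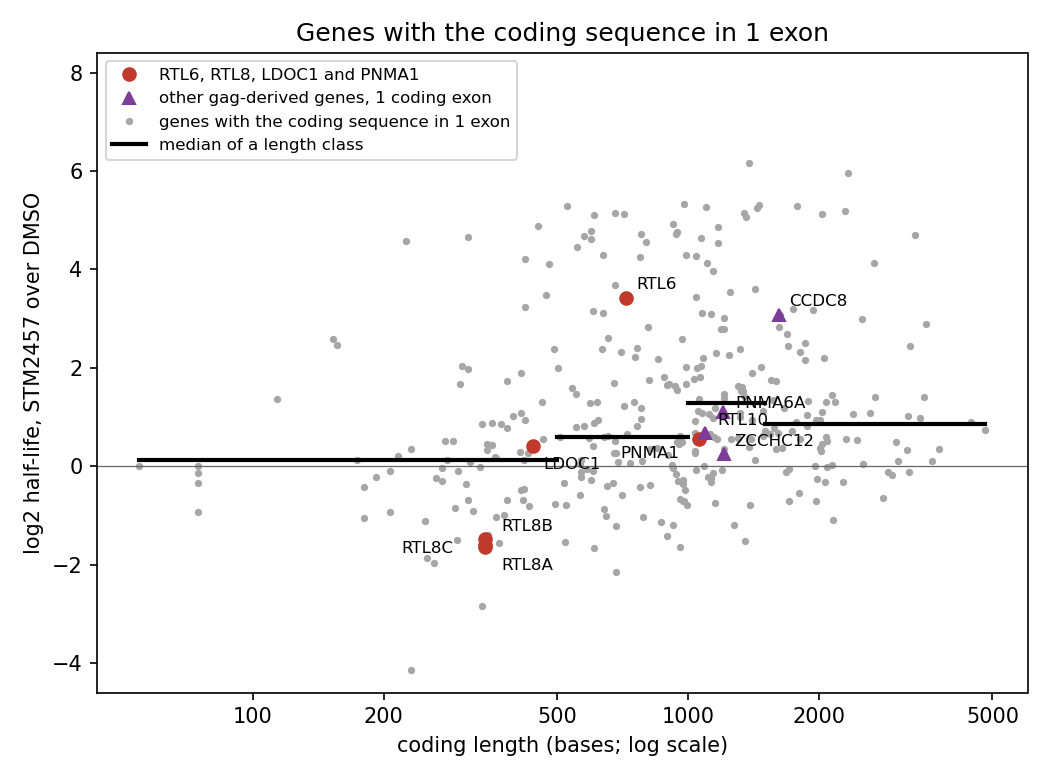
Log2 half-life ratio, STM2457 over DMSO, against coding length in bases (log scale) for the 346 genes with the coding sequence in 1 exon, with the 6 members as red circles, 4 other gag-derived genes as purple triangles and class medians as black lines. The RTL8 genes lie at 342 bases between -1.48 and -1.63, and RTL6 at 720 bases and 3.42.

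Of 20 other gag-derived genes listed, 5 were in the table. Of these, 3 were longer-lived (28.5% of all genes were), 0 shorter-lived (24.9% were) and 2 neither (median log2 ratio 0.68). All of the 5 but PNMA8A have the coding sequence in 1 exon, and 53.2% of all such genes were longer-lived. CCDC8, a partner of the CUL7 ubiquitin ligase, had a half-life of 12.6 h in STM2457 and 1.48 h in DMSO, 8.46-fold longer, and of the 5 was the nearest to RTL6 in its ratio. PNMA6A had 20.3 h in STM2457 and 9.49 h in DMSO, 2.14-fold longer. RTL10 had 2.52 h in STM2457 and 1.57 h in DMSO, 1.60-fold longer.

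The other gag-derived genes stayed within the rule. ZCCHC12, a PNMA-family coactivator in BMP signalling, had 13.0 h in STM2457 and 10.9 h in DMSO (log2 ratio 0.25). PNMA8A had 3.48 h in STM2457 and 4.94 h in DMSO (-0.50), and is the only one of the 5 whose coding sequence spans 2 exons. Coding length ran from 1095 bases in RTL10 to 1617 in CCDC8, longer than in any member, and far coding motifs from 13 in PNMA6A to 24 in ZCCHC12. None of these 5 was as short as RTL8 or LDOC1.

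Synthesis rates moved less than half-lives. Of the 6 members, 1 passed 1.5-fold, downwards (13.2% of all genes did), and 0 upwards (12.6% did). The rate of RTL6 was 83.0 in STM2457 and 162 in DMSO, a log2 ratio of -0.97, at the 3.59th percentile of all genes. The scale of these rates is not stated in the file, and they are fitted together with the half-lives, so that a trade-off between them within a fit was not tested.

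The RTL8 genes did not share a direction of synthesis. RTL8A had a rate of 275 in STM2457 and 222 in DMSO (log2 ratio 0.31), and RTL8C 128 in STM2457 and 98.8 in DMSO (0.37). RTL8B had 48.6 in STM2457 and 65.6 in DMSO (-0.43). All 3 were within 1.5-fold, as were LDOC1, at 47.5 in STM2457 and 39.8 in DMSO (0.26), and PNMA1, at 144 in STM2457 and 200 in DMSO (-0.47). Among the other gag-derived genes, CCDC8 had the lowest log2 synthesis ratio, -1.35, and ZCCHC12 the highest, 1.00.

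**Figure D4:**
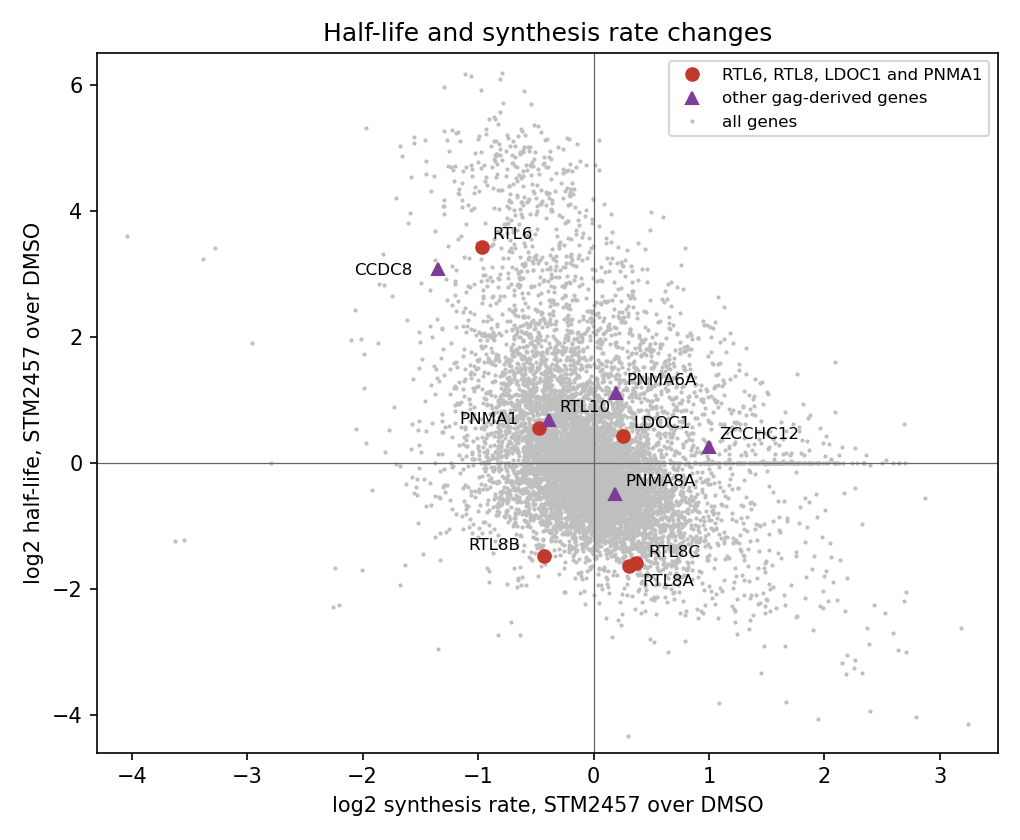
Log2 half-life ratio against log2 synthesis-rate ratio, both STM2457 over DMSO, for all genes with both values (grey), the 6 members (red circles) and 5 other gag-derived genes (purple triangles). RTL6 and CCDC8 lie at the upper left, at log2 half-life ratios of 3.42 and 3.08, and RTL8A, RTL8B and RTL8C below -1.4.

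Both rates together give the RNA level that the fits imply. If the DMSO rates held until the drug was added and the STM2457 rates from then on, the level after 6 h, the end of the longest labelling, would be 1.80-fold the DMSO level for RTL6. It would be 0.687-fold for RTL8A, 0.673-fold for RTL8C and 0.352-fold for RTL8B, and 1.12-fold for LDOC1 and 1.04-fold for PNMA1. Over all genes the median was 0.983-fold, with quartiles of 0.796 and 1.19. At steady state the same rates would give 5.49-fold for RTL6, above the 2.08-fold that 6 h of synthesis with no decay could reach. These are values computed from the fits and not measured levels.

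Genes for proteins that act on the RTL8 and PEG10 proteins were in the table for 4 of 5, with UBQLN4 absent. Of these, 2 were longer-lived (28.5% of all genes were) and 2 shorter-lived (24.9% were). UBQLN2 had a half-life of 4.86 h in STM2457 and 2.76 h in DMSO, 1.76-fold longer. UBE3A, a ubiquitin ligase, had 5.19 h in STM2457 and 3.11 h in DMSO, 1.67-fold longer. The ubiquilin UBQLN1 had 6.74 h in STM2457 and 11.7 h in DMSO, 1.74-fold shorter, and the deubiquitinase USP9X had 3.52 h in STM2457 and 6.48 h in DMSO, 1.84-fold shorter. Far from a junction lay all 27 coding motifs of UBQLN2, which has 1 exon and so no junction. In UBE3A 27 of 59 did, in UBQLN1 2 of 34 and in USP9X 22 of 144. UBQLN2, UBE3A and the shorter-lived USP9X thus fall among genes with 10 or more far motifs, whose median log2 ratio was 0.47. UBQLN1 falls among those with 1 to 3, whose median was -0.21. Whether the motifs had a part in the ratios of these genes was not tested.

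Of 38 listed genes from other retroviral sequences or DNA transposons, 10 were in the table. Of these, 3 were longer-lived (28.5% of all genes were), 0 shorter-lived (24.9% were) and 7 neither (median 0.08). ZBED4, a zinc-finger gene related to hAT transposases, had 18.3 h in STM2457 and 2.47 h in DMSO, 7.39-fold longer. CENPB, a centromere protein related to pogo transposases, had 2.48 h in STM2457 and 3.61 h in DMSO (log2 ratio -0.54). Of 30 imprinted genes, listed because PEG10 is imprinted, 11 were in the table. Beside the same shares of all genes, 3 of the 11 were longer-lived, 0 shorter-lived and 8 neither (median -0.11). Of the 3 longer-lived, 2 sat at the ceiling in STM2457. NAA60, an N-terminal acetyltransferase, was 7.14-fold longer-lived and PLAGL1, a zinc-finger factor, had a log2 ratio of -0.54.

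The nearest genes on either side of RTL6, and those outside the RTL8 genes, changed in the same direction as the members they flank. Those beside PNMA1 also had positive log2 ratios, and those beside LDOC1 differed in direction from each other. Whether position had a part was not tested. On either side of RTL6, PARVB, 319623 bases away, and PRR5, 170249 bases away, were 1.74-fold and 1.91-fold longer-lived, with PARVB at the ceiling in STM2457. Below the RTL8 genes, SMIM10, 28031 bases from RTL8B, was 3.62-fold shorter-lived, at 1.33 h in STM2457 and 4.84 h in DMSO, and above them ZNF75D, 196724 bases from RTL8A, was 1.55-fold shorter-lived. SMIM10 also carries its coding sequence in 1 exon, of 252 bases. Beside PNMA1, ELMSAN1, 750 bases away, was 1.51-fold longer-lived and DNAL1, 8051 bases away, had a log2 ratio of 0.25. The nearest genes of the table to LDOC1 were distant: LINC00632, 382530 bases away, had a log2 ratio of 0.10, and FMR1, which encodes an RNA-binding protein and lies 6734826 bases away, was 1.69-fold shorter-lived.

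Genes most like a member were found by Euclidean distance over 3 values, the log2 half-life in each treatment and the log2 synthesis ratio, among 8993 genes. MEPCE, which caps 7SK RNA, was nearest to RTL6 (0.19), followed by the adaptor NCK1 (0.24) and ADNP2 (0.26), at 19.6, 20.5 and 18.9 h in STM2457 and 2.03, 2.00 and 1.79 h in DMSO. THYN1 was nearest to RTL8A (0.09) and CPOX, a haem synthesis enzyme, to RTL8B (0.07). NAF1 was nearest to PNMA1 (0.06) and CCDC34 to LDOC1 (0.04). All of these have 3 or more coding exons, unlike the members.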

How the data were processed

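The build GRCh38.p12 and the tools STAR 2.7.8a and FastQC 0.11.9 are named per the submitters' processing notes. The sources used here do not give the kinetics tool, the annotation, the gene filter, or how strand and multi-mapping reads were treated. The authors' table holds, per gene and treatment, a half-life (a fitted value in an unstated time unit, taken as hours) and a synthesis rate, a fitted value on a scale the authors do not state. It also holds the authors' deposited log2 ratios of STM2457 over DMSO, which were recomputed from these columns. Without counts, neither depth nor its precision is known. The table holds no value per sample, so no test was made and no replicate could be compared.

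Gene structure and sequence came from GENCODE release 29 (GRCh38). Without their version, 8982 of 8996 identifiers matched (3241 with it), and 8611 genes had a coding transcript; the one with the longest coding sequence was used. Versions differ for RTL6 and LDOC1, whose coordinates are those of the release 29 versions, ENSG00000188636.3 and ENSG00000182195.7. No other annotated gene overlapped a member. Genes are named by a rule: members; the lists of other gag-derived genes and of genes acting on RTL8 and PEG10 proteins; the highest and lowest member, within 0.5 to 24 h, of the other lists; nearest neighbours, most similar genes and the 3 genes on each side of RTL6. The results of 2 genes that the rule or a window named are not reported here. Members and lists were chosen with earlier results of these data known. The code was tested on simulated data. Alternatives changed the size rule, centring, half-life range and gene class. Python 3.11.15, NumPy 2.4.6, pandas 2.3.3, edlib and Matplotlib 3.10.9 were used.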

Additional observations from a re-analysis of the deposited data

How the results depend on the processing

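The values of single members kept their direction and moved by less than 1.5-fold under centring on the median of all genes and on genes of like DMSO half-life; after the second, LDOC1 passed the size rule, at 0.86. The counts of 1 longer-lived and 3 shorter-lived members held at 2-fold and after centring on the median of all genes, which was only -0.01. The limits of 0.5 to 24 h and of the ceiling leave out no member, so they could not change the counts. With the size rule at 25% longer, 3 members were longer-lived, with LDOC1 and PNMA1 added, by construction. On the level after 6 h computed from both rates, 1 member, RTL8B, was lower by more than 1.5-fold, against 3 by half-life. The median log2 ratio of the members was -1.48 without RTL6 and 0.49 with the RTL8 genes counted once as their mean, since few genes enter it. For genes with the coding sequence in 1 exon the median of 0.68 became 0.55 within 0.5 to 24 h and 0.55 under the ceiling, both of which leave out genes with long STM2457 half-lives, and 0.12 up to 500 coding bases and 1.28 over 1000 and up to 1500. The length split and the level after 6 h were chosen after seeing the data. No paired analysis was possible because the table holds no value per sample; leaving out a replicate could not be run for the same reason. Depth limits could not be judged without counts.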

Other observations

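Within 1000 kb on either side of the RTL8 genes, the half-life ratios of other genes in the table were mixed. SMIM10, ZNF75D and MMGT1 were shorter-lived, at log2 ratios of -1.86, -0.63 and -1.02. HPRT1, of purine salvage, and FAM122B were longer-lived, at 1.37 and 0.88, with HPRT1 at the ceiling in STM2457. PHF6, MOSPD1 and MIR503HG were within 1.5-fold, at -0.57, -0.21 and 0.16. Of the 314 genes on the X chromosome other than the members, 85 were longer-lived (27.1%) and 87 shorter-lived (27.7%), with a median of 0.00. Over all genes the shares were 28.5% and 24.9%. This window was chosen after the values of the RTL8 genes were seen.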
